A study of Mus musculus with 3 samples.

Results

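The Rab genes on the array encode the small GTPases that direct membrane traffic. They were taken as every non-control probe whose gene name, or the current symbol of its accession, was Rab with a number and at most 1 further letter, or an l with a number, and proteins that only bind Rabs were left out. This gave 114 of 41174 probes, and they stood for 59 genes. Of these probes, 103 carried a Rab name in the files, 5 were joined through their accession (among them the only probe of Rab7b) and 6 through a synonym of an older clone name. Rab42 and Rab44 rest on the synonyms alone.

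RNA of 3 individual Plk1(+/-) aortas was measured in Cy5 on 3 two-colour Agilent arrays of 1 slide, each against the same Cy3-labelled pool of 3 wild-type aortas. All animals were 3 to 5 months old and of the mixed strain 129/CD1, and nothing in the labels says how the Plk1 allele was inactivated. The comparison asks which transcripts differ in vessels that carry a single working copy of Plk1, the polo-like kinase of mitosis. Since Cy5 always held Plk1(+/-) RNA, dye and genotype cannot be told apart, and the pool is 1 control sample whose own spread between animals was not measured. Values below are log2 ratios of Plk1(+/-) over the pool, with SD over 3 arrays, unless they are called signals.

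Rab proteins cycle between a GTP-bound form, which sits on a membrane and recruits effectors such as motors and tethers, and a GDP-bound form, which a dissociation inhibitor keeps soluble. Exchange factors load GTP at the right membrane, and GTPase-activating proteins end the signal. Each compartment of the secretory and endocytic routes carries its own set of Rabs, and some, such as the Rab3 group on synaptic vesicles, are best known from nerve cells and glands. In vessel walls, Rabs carry out the general traffic of smooth muscle, endothelial and adventitial cells.

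The probes that the main results turn on are shown first, with the bases that they share with probes of other Rab genes. The first 30 of the 60 bases of each are given 5′ to 3′ as in the files, with positions and strand in mm7. Rab7b and its relatives by role or position are these:
Rab7b, chr1:131608159-131608218, plus strand: tgtcaagaaaatggctgaagcttgtttcca
Rab7, chr6:88074717-88074776, minus strand: gtacagtagacacaagaattatgtacgcct
Rab9, chrX:161232161-161232220, minus strand: aacaagtgcaaaagattccaccaatgttgc
Rab29, chr1:131768302-131768361, plus strand: ctcattcctcgactgtgagatgagtttatg
The longest run of bases that the full Rab7b probe shared with these was 6 with Rab7, 7 with Rab9 and 5 with Rab29. Over all 114 probes, the longest run shared with a probe of another Rab gene, on either strand, was 14 bases, and none shared 20 or more. Probes were compared only with probes, not with whole transcripts, so these runs cannot show that a probe read its own gene alone.

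The Rabs whose ratio spread most between samples were read by these probes, of which the Rab3c pair overlaps. Capitals mark bases that lie in the 40-base stretch common to both Rab3c probes, so these probes are not independent readings:
Rab3b, chr4:108317443-108317502, plus strand: ctccctcttatgaagaaggttcaagataga
Rab3c, brighter probe, chr13:107232790-107329573, minus strand: ttaatgtatgacatcacaaaTGAAGAATCC
Rab3c, dimmer probe, chr13:107232770-107329553, minus strand: TGAAGAATCCTTCAACGCTGTACAAGATTG
Rab15, chr12:74756689-74756748, minus strand: gtgacctttgtgtactgtgtcttgggtcca
Rab9b, chrX:131577434-131577493, minus strand: ctgaggtattccaccatcctcttgttgcag
Rab6b, chr9:102899312-102899371, plus strand: ctgtgtaatatgtggaaaagactcagcatg
The files give each Rab3c probe as a span far longer than the probe itself. Exons, introns and UTRs under the probes were not analysed here.

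Some features of the libraries touch the Rab results. Plk1 itself read -0.06, -0.08 and 0.42 in samples 1, 2 and 3 (mean 0.10 ± 0.28, limma adjusted p = 0.706), so no lower Plk1 signal was detected with its 1 probe. Markers of several cell types differed from the pool: all 12 smooth muscle markers read negative on all arrays (median -1.07, 3 with a saturated spot), as did 10 of 12 adventitial fibroblast markers (median -0.53) and 10 of 12 fat markers. Those 10 fat markers all had a saturated spot, so neither a size nor a direction is given for them. Ucp1, Cidec and Cox8b had the same ratios as the red cell gene Hba-a1 (-1.45, -1.43 and -1.49). Cy5 had 574 to 627 saturated probe spots per array against 66 to 104 in Cy3, so a ceiling alone can give negative ratios. Other marker lists differed among the 3 samples. All 13 measured neuron markers were highest in sample 1 and lowest in sample 3, with medians of 1.49, 0.61 and -0.38, and 12 of 14 lymphocyte markers went the opposite way, with medians of 0.14, 1.33 and 1.83. Skeletal and heart muscle markers had medians of -0.69, -0.85 and -2.95, and endothelial markers 0.08, -0.11 and -0.20. All 12 smooth muscle markers nonetheless read well above background in every sample, so the markers that define the labelled tissue were present. In bulk RNA, fewer cells of a type and less RNA per cell cannot be told apart.

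As a family, the Rab genes sat close to the pool. All 59 were measured, 104 of their 114 probes passed the filter on dim signal, and no Rab spot was saturated. The median ratio of the 59 genes was 0.08 (0.11, 0.05 and -0.02 in samples 1, 2 and 3), beside 0.04 over all 22053 features tested. Mean ratios of 45 of 59 genes lay within 0.3 of 0, or 76.3%, beside 82.7% of all features. The 37 genes that the naming rule did not pick had means between -0.17 and 0.38 and adjusted p of at least 0.287. The share of Rab genes with 1 sign on all arrays was 49.2%, beside 45.4% of all features.

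**Figure D1:**
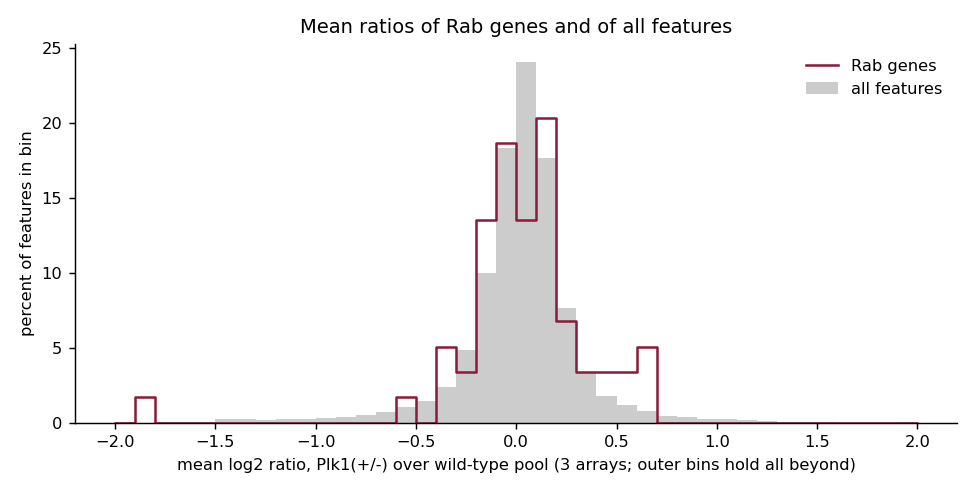
Mean log2 ratio of Plk1(+/-) over the wild-type pool on 3 arrays, as the percent of features in each bin, for the Rab genes (line) and all features (grey bars). The Rab genes cover the same central range as all features, with a median of 0.08 beside 0.04, and Rab7b stands alone at -1.82.

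Only 1 Rab gene passed the test over all features (adjusted p under 0.05), Rab7b, which fell. That is 1.69% of the 59 genes, beside 0.925% of all features called in either direction and 0.889% called lower. Most of those lower calls were saturated features, while no Rab spot was saturated. The 21524 unsaturated features held all 8 higher calls but only 24 of the 196 lower calls. At an unadjusted p under 0.05 there were 12 Rab genes, 6 higher and 6 lower, or 20.3%, beside 19.0% of all features, so the family's share of such genes was near that of the array as a whole. The signals of Plk1(+/-) and pool did not overlap over the 3 arrays for 14 Rab genes, 8 higher and 6 lower, or 23.7%, beside 20.5% of all features. With median centring of each array in place of loess, the median of all features moved to 0.23 and that of the Rab genes to 0.36. The calls then numbered 7156 higher and 2620 lower, against 8 higher and 196 lower with loess, so the direction of small Rab ratios depends on the normalization.

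**Figure D2:**
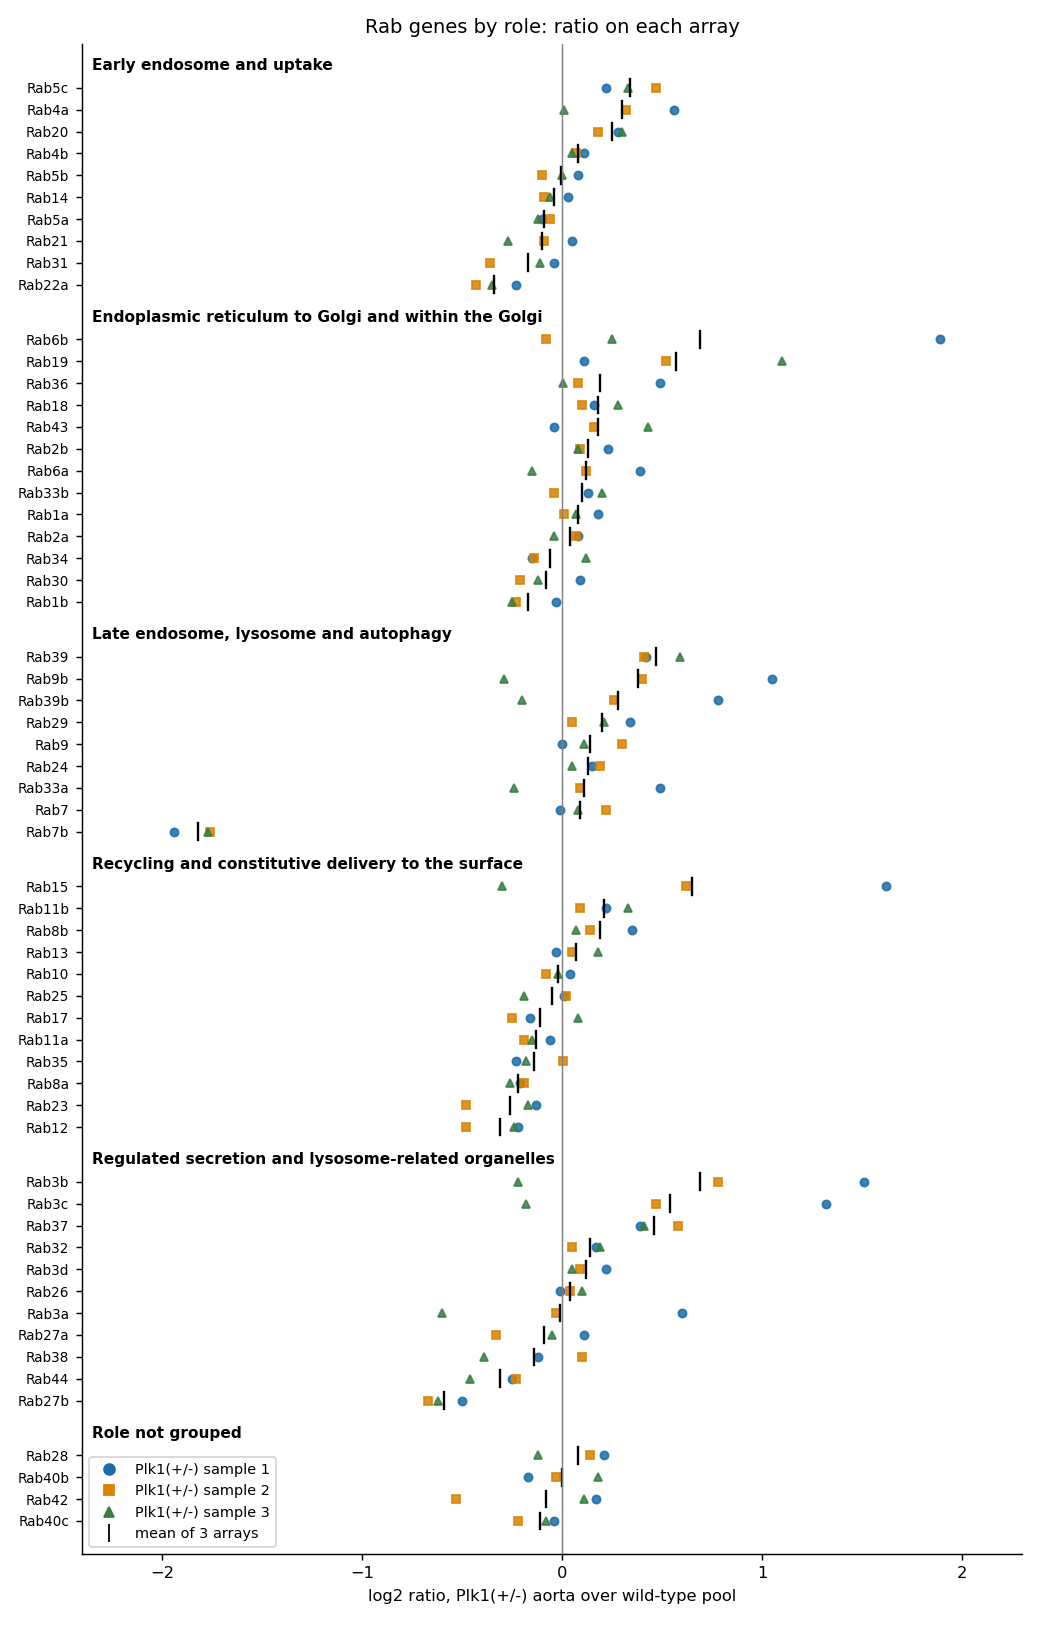
Log2 ratio of Plk1(+/-) over the wild-type pool for each of the 59 Rab genes, grouped by role, with a point for each of the 3 Plk1(+/-) samples and a bar for the mean. Rab7b lies between -1.94 and -1.76 in all samples, while Rab6b, Rab15, Rab3b and Rab3c spread over more than 1 log2 unit between samples.

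Rab7b is a late endosomal Rab known for carrying cargo from endosomes back to the trans-Golgi network. Its signal was 534, 568 and 604 in Plk1(+/-) samples 1, 2 and 3, against 2049, 1927 and 2060 for the pool on the same arrays. The 3 Plk1(+/-) readings lay far below all 3 pool readings, and neither set varied much. The pool readings repeat 1 RNA, so they do not show the spread between wild-type animals. The ratios were -1.94, -1.76 and -1.77, a mean of -1.82 ± 0.10 (n = 3), or 3.54-fold lower in Plk1(+/-). Its p of 9.3e-06 in the limma test ranked 1 of all 22053 features, and the adjusted p was 0.00709. The ratio rests on 1 probe, whose spot stood well above background in every reading and was not saturated.

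The size of the Rab7b fall was stable while its call was not. When saturated features were left out, Rab7b still ranked 1, but its adjusted p became 0.162 and limma called 0 of 21524 features (0%; 17.7% at an unadjusted p under 0.05). The adjusted p was 0.0399 without sample 1, 0.153 without sample 2 and 0.0711 without sample 3, with mean ratios of -1.77, -1.85 and -1.85. Of the 12 fat markers, 7 were called lower, all among the 10 with a saturated spot, whose ratios give neither a size nor a direction. The 2 without one varied between samples, Lep at 0.14, -0.13 and -1.35 and Retn at -1.17, 0.39 and -0.65. With saturated spots taken at their ceiling, the list's summed signal was 404706 to 408231 in Plk1(+/-) against 945909 to 991154 for the pool. Since Cy5 had more saturated spots than Cy3, this gap cannot show that Plk1(+/-) held less fat RNA. Macrophage markers had medians of -0.08, -0.19 and 0.14 and summed signals of 57896 to 63832 in Plk1(+/-) against 77588 to 99500 for the pool. Of these 12 markers, 3 were positive and 3 negative on all arrays. The lowest, Lyz2 at -0.97, -0.79 and -0.47, had a saturated spot, so the sum includes a reading at the ceiling. The part of either cell type in the Rab7b result was not tested.

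No other Rab of the late endosome and lysosome was called. Rab7, the Rab that matures and fuses late endosomes with lysosomes, had signals of 6119, 6749 and 6581 in Plk1(+/-), against 6155, 5807 and 6248 for the pool, and these overlapped (mean 0.09 ± 0.11, adjusted p = 0.536). Its other kept probe gave a mean of 0.07 ± 0.06. Rab9, which returns mannose 6-phosphate receptors to the Golgi and was the brightest of its list, read -0.00042, 0.30 and 0.11 (adjusted p = 0.435). Rab29, a Golgi and lysosome Rab known as a partner of the kinase LRRK2, has its probe 160084 bases beyond that of Rab7b on the same chromosome and strand. It read 0.34, 0.05 and 0.21, with signals of 2486, 2071 and 2214 in Plk1(+/-), each above all 3 pool signals of 1967, 2002 and 1911 (adjusted p = 0.305). Rab24, a Rab of autophagy, averaged 0.13 ± 0.07.

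**Figure D3:**
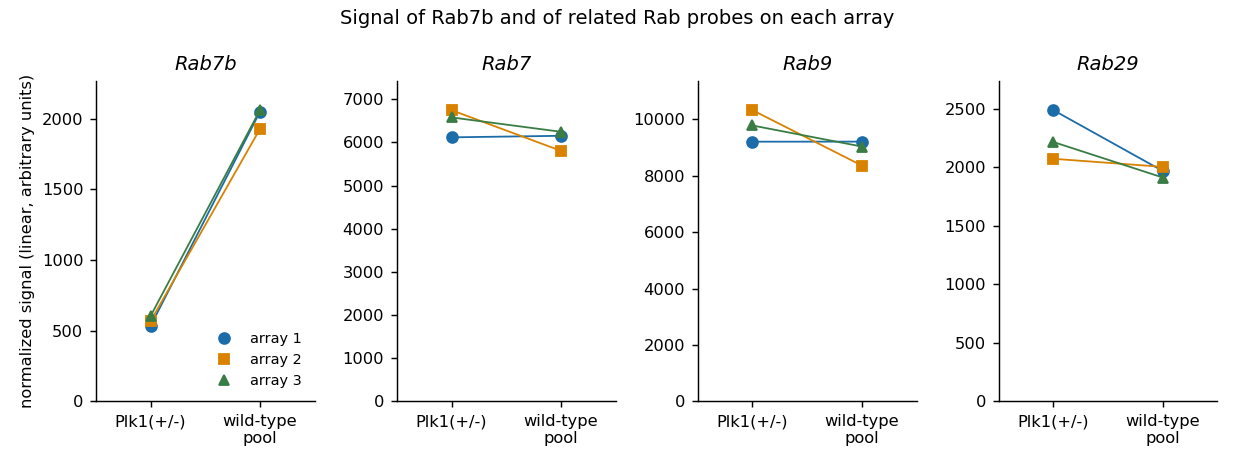
Normalized signal (linear, arbitrary units, each panel on its own axis from 0) of the Rab7b, Rab7, Rab9 and Rab29 probes in Plk1(+/-) and in the wild-type pool, with lines joining both dyes of an array. Rab7b lies at 534 to 604 in Plk1(+/-) and 1927 to 2060 in the pool, while the Rab7 readings overlap.

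Rab39, a late endosomal Rab of the same list, had low signals of 141, 148 and 167 in Plk1(+/-), well above background on all 3 arrays, against 105, 112 and 111 for the pool, not well above background on any. It was kept through its Plk1(+/-) readings alone, in the dye with more probe spots well above background (77 to 80.8% against 66 to 69%). The measured signal was 1.39-fold higher in Plk1(+/-), and it did not pass over all features in limma (adjusted p = 0.12). Taking the pool at no less than the lowest signal well above background left this fold unchanged, so it is not a lower bound. With the scanner's own log ratio its mean was 1.26. Its paralogue Rab39b, best known from neurons, had a wider spread at 0.78, 0.26 and -0.20.

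Among Rabs of the early endosome and uptake, 2 of 10 were higher and 1 lower at an unadjusted p under 0.05, beside the 19.0% of all features past that p, and none passed over all features. Rab5c, 1 of 3 Rab5 forms that build the early endosome, had signals of 9608, 10152 and 9948 in Plk1(+/-) against 8244, 7310 and 7915 for the pool. All Plk1(+/-) readings were above all pool readings (mean 0.34 ± 0.13, adjusted p = 0.186). Its paralogues stood nearer to 0, Rab5a at -0.09 ± 0.03 and Rab5b at -0.0081 ± 0.09, the last with dim signals of 141 to 163 in Plk1(+/-). The test of a difference between paralogues was not made, since each has its own probe.

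Rab22a, which acts in sorting at the early endosome, read -0.23, -0.43 and -0.35, the lowest mean of its list (-0.34 ± 0.10, adjusted p = 0.176). Only its brightest probe did so: the other kept probes averaged -0.0024 ± 0.14 and -0.01 ± 0.08. With median centring its mean turned to 0.09, below the median of 0.23 over all features. Rab20, described in macrophages on maturing phagosomes, read 0.28, 0.18 and 0.30 (adjusted p = 0.203), with dim and overlapping signals of 243 to 308 in Plk1(+/-) and 200 to 251 in the pool. Rab4a, a Rab of fast recycling, read 0.56, 0.32 and 0.0074, and its paralogue Rab4b stayed within 0.11, 0.07 and 0.05.

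Of 13 Rabs that work between the endoplasmic reticulum and the Golgi, 11 had means within 0.3 of 0, and the other 2 were Rab6b and Rab19. Rab1b, which acts on vesicles leaving the endoplasmic reticulum and was the brightest of the list, averaged -0.17 ± 0.12 (adjusted p = 0.34), and 0.33 with median centring. Its paralogue Rab1a averaged 0.08 ± 0.08. Rab2a and Rab2b averaged 0.04 ± 0.06 and 0.13 ± 0.08, and Rab18, also known from lipid droplets, 0.18 ± 0.09. The list's median was 0.12, and 1 of its genes, Rab19, had an unadjusted p under 0.05.

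Rab19, a Golgi-associated Rab, was uneven across samples. Its signals were 420, 548 and 855 in Plk1(+/-) against 390, 382 and 400 for the pool, giving ratios of 0.11, 0.52 and 1.10. All Plk1(+/-) readings were above the pool's, least in sample 1 and most in sample 3 (mean 0.57 ± 0.50, adjusted p = 0.257). Lymphocyte markers ran in the same order, and their summed signal was 14243, 40654 and 67032 in Plk1(+/-) against 14616, 14686 and 14347 for the pool. Besides 12 of 14 lymphocyte markers, 6 of 12 macrophage markers and 11 of 39 exchange factor genes had this order. The share of all features with it was not counted. The part of any cell type in the Rab19 result was not tested.

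Rabs of recycling and constant delivery to the surface gave 3 of 12 genes at an unadjusted p under 0.05, beside the same 19.0% of all features, and none passed over all features. Rab8a, which drives delivery to the plasma membrane and the cilium, read -0.21, -0.19 and -0.26 (mean -0.22 ± 0.04, adjusted p = 0.219), and its other kept probe averaged -0.20 ± 0.11. Its paralogue Rab8b read 0.35, 0.14 and 0.07, with signals of 649, 524 and 545 in Plk1(+/-), each above the pool's 509, 475 and 519 (adjusted p = 0.323). The 2 paralogues thus had opposite signs on all arrays with loess, but with median centring Rab8a turned to 0.13.

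Rab11b, a Rab of the recycling endosome, read 0.22, 0.09 and 0.33 (adjusted p = 0.261), while its 3 other kept probes averaged between -0.04 and 0.06. Its paralogue Rab11a averaged -0.13 ± 0.07 on the brightest probe and 0.16 ± 0.05 on the next. Rab35, another recycling Rab and the brightest of this list with a mean of -0.14 ± 0.12, turned to 0.34 with median centring. Rab10, known in fat cells for bringing glucose transporters to the surface, averaged -0.02 ± 0.06.

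Rab12, which sends receptors from recycling endosomes to lysosomes, had signals of 3328, 2523 and 3187 in Plk1(+/-) against 3881, 3510 and 3765 for the pool. The ratios of this brightest probe were -0.22, -0.48 and -0.24, and its signals did not overlap (adjusted p = 0.203). The other kept probes of Rab12 averaged -0.16 ± 0.10 and 0.03 ± 0.05, with overlapping signals. Rab23, a Rab of the cilium that restrains Hedgehog signalling, read -0.13, -0.48 and -0.17 (adjusted p = 0.276). Like the brightest probe of Rab22a, both were lowest in sample 2, while the other kept probes of Rab22a were highest there. Smooth muscle markers were also lowest in sample 2 (medians -0.46, -1.47 and -0.95), together with fibroblast markers (-0.36, -0.69 and -0.42). The part of these cell types was not tested. Lowest in sample 2 with negative ratios on all arrays were 7 Rab genes, or 11.9%, beside 9.28% of all features, and with median centring the means of Rab12 and Rab23 turned to 0.12 and 0.13.

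Of 11 Rabs of regulated secretion, 6 had means within 0.3 of 0, and none passed over all features. Rab27b, which docks secretory granules and exosome-bearing bodies at the plasma membrane, had dim signals of 219, 199 and 154 in Plk1(+/-) against 309, 317 and 236 for the pool. All Plk1(+/-) readings were below all pool readings, and the ratios were -0.50, -0.67 and -0.62 (mean -0.59 ± 0.09, 1.51-fold), while the scanner's log ratio and the authors' series values both gave a mean of -0.95. Its adjusted p of 0.0763 was the lowest among Rab genes after Rab7b and missed the threshold. Of its 3 probes only this one was above the filter on dim signal. Its paralogue Rab27a averaged -0.09 ± 0.22 with overlapping signals.

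Rab37, a Rab of secretory granules, read 0.39, 0.58 and 0.41, with signals of 276, 291 and 281 in Plk1(+/-) against 210, 194 and 211 for the pool and no overlap (mean 0.46 ± 0.11, adjusted p = 0.125), and the scanner's log ratio and the series values gave a mean of 0.70. Its dimmer probe averaged 0.17 ± 0.07. Rab44, a large Rab known from mast cell granules and a member here only by a synonym, read -0.25, -0.23 and -0.46 at the lowest signals of these genes, 74 to 97 in Plk1(+/-) and 87 to 133 in the pool (adjusted p = 0.199). It was well above background on 2 arrays in Plk1(+/-) and on 1 in the pool. Rab32 and Rab38, Rabs of melanosomes and related organelles, averaged 0.14 ± 0.07 and -0.14 ± 0.24, and the pool's Rab38 signal was well above background on 1 of 3 arrays.

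Of 4 Rabs with no settled place in these routes, Rab28, known from photoreceptor cilia, was the brightest and read 0.21, 0.14 and -0.12 (adjusted p = 0.673), and its other kept probes averaged -0.08 and -0.13. Rab40b and Rab40c, which carry a box for ubiquitin ligase assembly, averaged -0.0029 ± 0.17 and -0.11 ± 0.09. Rab42, a member by synonym only, read 0.17, -0.53 and 0.11.

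The widest spread between Plk1(+/-) samples was found in Rabs best known from nerve cells. The range over the 3 arrays exceeded 1 for 6 Rab genes, Rab15, Rab3a, Rab3b, Rab3c, Rab6b and Rab9b, or 10.2%, beside 7.16% of all features. Rab3b, a Rab of synaptic and hormone vesicles, had signals of 5290, 2834 and 964 in Plk1(+/-) samples 1, 2 and 3, against 1854, 1655 and 1125 for the pool. On this brighter probe, samples 1 and 2 lay above every pool reading and sample 3 below all of them. The mean ratio of 0.69 ± 0.87 thus averages values of 1.51, 0.78 and -0.22 (adjusted p = 0.36). The pool was the same RNA on each array, and the pool's Rab3b signal was itself lowest on array 3.

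Rab15, a recycling endosome Rab of neurons, ran alike, with signals of 14274, 6144 and 2548 in Plk1(+/-) against 4651, 3989 and 3143 for the pool and ratios of 1.62, 0.62 and -0.30. Rab3c, another vesicle Rab, read 1.32, 0.47 and -0.18. Rab3a, the main Rab of synaptic vesicles and the brightest of its list, read 0.60, -0.03 and -0.60, and its mean of -0.01 hides a high sample 1 and a low sample 3. The Rab3 paralogue of exocrine and endocrine granules, Rab3d, stayed at 0.22, 0.09 and 0.05.

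Rab9b, Rab39b and Rab33a, all described in brain, read 1.05, 0.40 and -0.29, then 0.78, 0.26 and -0.20, then 0.49, 0.09 and -0.24 in the same samples. Highest in sample 1 and lowest in sample 3 were 18 of 59 Rab genes, or 30.5%, beside 20.8% of all features. These 18 include Rab1b, Rab2a, Rab4b and Rab3d, so the order was not confined to nerve-type Rabs. Besides all 13 neuron markers, 8 of 14 skeletal and heart muscle markers and 7 of 12 endothelial markers had this order, and 5 of 10 Schwann cell markers. The summed signal of the 13 neuron markers was 106673, 66359 and 34315 in Plk1(+/-), against 41532, 40665 and 43387 for the pool. Among them, Uchl1 had a saturated spot. Schwann cell markers had medians of 0.27, 0.12 and 0.10. These nerve-type Rabs were brought together after their values were seen, so their common order is a description, and the part of nerve, muscle or endothelial cells in it was not tested.

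Rab6b, the form of the Golgi Rab6 best known from neurons, departed from that order. Its signals were 26130, 6638 and 8800 in Plk1(+/-) against 7054, 7008 and 7415 for the pool, so that sample 1 was far above the pool, sample 2 below it and sample 3 above it. The ratios were 1.89, -0.08 and 0.25, and a second probe on the same chromosome gave 1.32, -0.36 and 0.50. Rab6a, the widely expressed form, read 0.39, 0.12 and -0.15 on its brighter probe and -0.16, 0.18 and -0.09 on the other. The mean of Rab6b (0.69 ± 1.05, adjusted p = 0.426) rested on sample 1, without which it was 0.08.

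**Figure D4:**
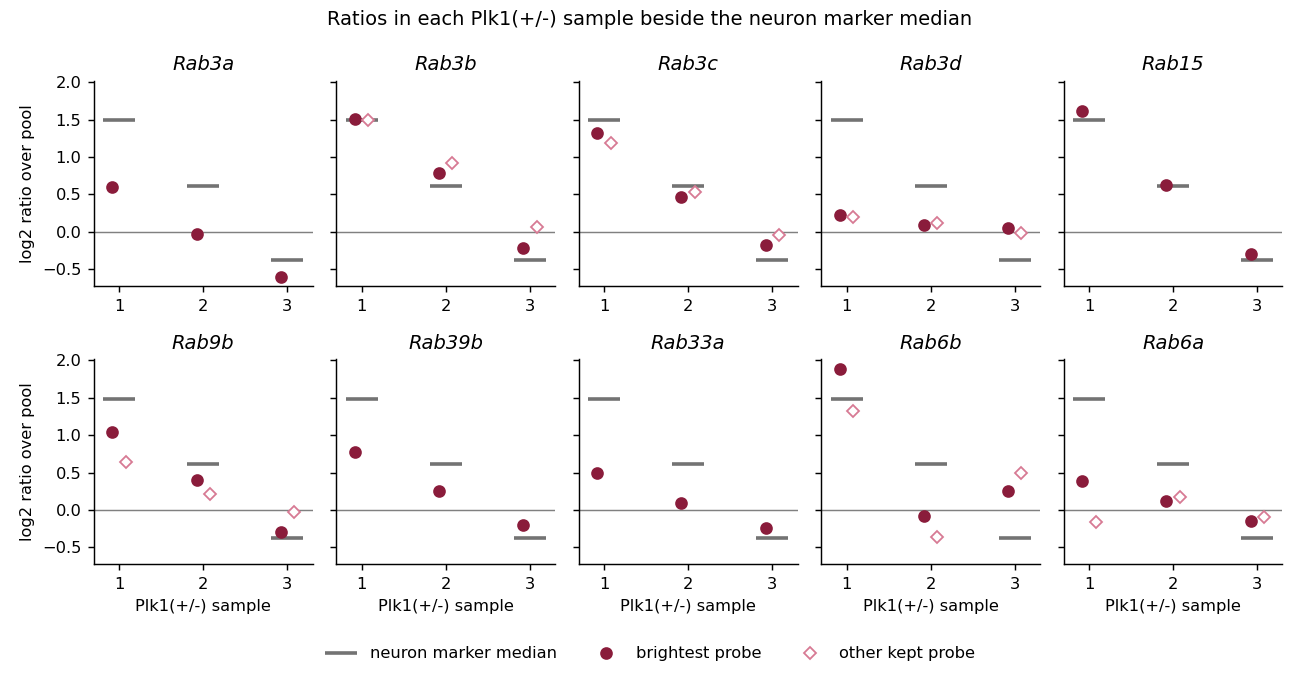
Log2 ratio over the wild-type pool in Plk1(+/-) samples 1, 2 and 3 for 10 Rab genes, with a filled point for the brightest probe, an open one for another kept probe, and a grey bar for the median of the neuron markers. Rab3b, Rab3c and Rab15 lie near the marker medians of 1.49, 0.61 and -0.38, Rab3d and Rab6a stay nearer to 0, and Rab6b lies farthest above the pool in sample 1, with sample 3 also above it and sample 2 below.

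For 32 genes there was more than 1 kept probe, and for 30 of these every further probe lay within 0.3 of the brightest. Since 45 of 59 genes lay within 0.3 of 0 themselves, this says little for genes near 0. The largest difference was 0.34, between probes of Rab12, whose dimmest probe averaged 0.03 ± 0.05. Kept probes differed in sign for 13 genes, but no gene had probes beyond 0.3 on both sides. Both probes of Rab3b and of Rab6b, which lie apart in the genome, gave wide spreads between samples. The other 27 genes, Rab7b, Rab27b, Rab15 and Rab5c among them, rest on 1 kept probe. A probe named Rab34 that lies antisense to the gene was too dim to keep.

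**Figure D5:**
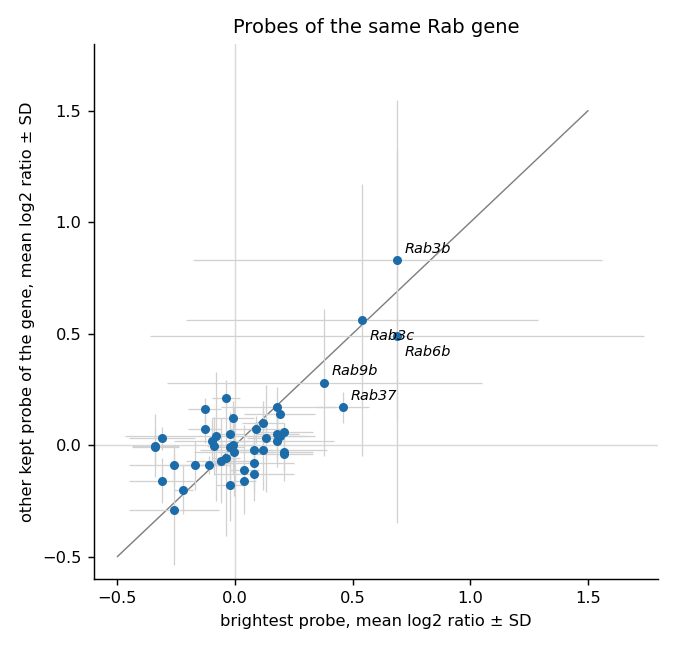
Mean log2 ratio ± SD over 3 arrays of the brightest probe (horizontal axis) and of each other kept probe (vertical axis) of the same Rab gene, with the line of equality. For 30 of 32 genes every further probe lies within 0.3 of the brightest, and Rab3b, Rab3c, Rab6b and Rab9b have wide SDs on both axes.

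Genes that load, extract, switch off or read out Rabs were counted from 4 lists. Of 11 genes for dissociation inhibitors, escorts and prenylation, none was called, and 2 had an unadjusted p under 0.05. These were Arl6ip5, a membrane protein of the Rab acceptor family, at 0.27, 0.25 and 0.36 (adjusted p = 0.181), and Rabggta, a subunit of the enzyme that attaches the lipid anchor, at 0.17, 0.32 and 0.24 (adjusted p = 0.214). Of 39 exchange factor genes none was called, and 5 were higher and 3 lower at an unadjusted p under 0.05. Madd, the exchange factor of the Rab3 and Rab27 groups, read 0.89, 0.70 and 0.67 and just missed the threshold (mean 0.75 ± 0.12, adjusted p = 0.0525). Madd was positive in all 3 samples, unlike Rab3c and the brighter probe of Rab3b. The dimmer kept probe of Rab3b was also positive throughout, at 0.06 in sample 3.

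Of 35 genes for GTPase-activating proteins none was called, and 6 were higher and 1 lower at an unadjusted p under 0.05. The one with the smallest p was Rabgap1l, at 0.68, 0.42 and 0.65 (mean 0.58 ± 0.14, adjusted p = 0.103). Tbc1d5, which acts on Rab7 together with retromer, averaged 0.30 ± 0.11 (adjusted p = 0.195). Of 46 effector genes, 1 was called lower and none higher. It was Plin2, a lipid droplet coat protein placed on the effector list, with a mean ratio of -1.12 ± 0.22 (limma adjusted p = 0.041). Its probe had a saturated spot, so no fold is given and its direction is uncertain. Micall1, a scaffold of Rab8 and Rab35 membranes, averaged -0.50 ± 0.10 (adjusted p = 0.107), and Rilpl1, which binds phosphorylated Rab8 and Rab10, -0.58 ± 0.26 (adjusted p = 0.172). The shares of these 4 lists at an unadjusted p under 0.05 can be read beside the 19.0% of all features.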

How the data were processed

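Per the file headers, the authors made the spot intensity values with Feature Extraction 9.5.3.1, and the mean signals deposited there are raw. The deposited log10 ratio and the authors' series values in log2, whose centring is not stated, served as alternatives. A growth protocol in the labels speaks of cultured stem cells, but the samples are labelled aorta and were taken as such.

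Signals were corrected with normexp (offset 50) and loess in limma 3.58.1 under R 4.3.3, with version 1.17.8 of its data.table package, without outlier spots. Probes well above background in either dye on 2 of 3 arrays were kept, and the brightest stood for its gene. Ratios were tested against 0 (lmFit, eBayes, two-sided, Benjamini-Hochberg over 22053 features), a test checked on simulated data. Linear signals are per-dye values after between-array scaling (Aquantile). Tables and figures used Python 3.11.15 with pandas 2.3.3, numpy 2.4.6 and matplotlib 3.10.9.

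Current gene names came from a table of GRCm38.p6. Members, lists and tests were chosen with earlier results of these data known. The naming rule took genes past a p of 0.05 before or after adjustment, the 6 highest and 6 lowest means, Rab7b, the brightest of each role list, genes with opposed probes, and the 3 smallest p of each Rab cycle list. Their paralogues and genes of wide range were added after values were seen. Precision is limited by the 3 arrays, and p-values measure the spread between samples against 1 pool.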

Additional observations from a re-analysis of the deposited data

How the results depend on the processing

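With median centring, 9776 features and 34 Rab genes were called, and the Rab median was 0.36. The means of Rab12 (0.12), Rab1b (0.33), Rab22a (0.09), Rab23 (0.13), Rab35 (0.34), Rab3a (0.46) and Rab8a (0.13) then turned positive. With saturated features left out, 0 features and 0 Rab genes were called in limma. Features called numbered 121 with a normexp offset of 10 and 117 with the scanner's log ratio. Leaving out 1 sample gave 0 to 175 features and 0 to 1 Rab genes called, with 0 in both without sample 2 and without sample 3. The Rab median was then 0.03 to 0.07. Rab3a was -0.32 without sample 1 and turned to 0.29 without sample 3, and Rab28 to -0.05 with the mean of all kept probes. Rab7b stayed between -1.93 and -1.47 over 16 alternatives, with adjusted p from 0.0039 to 0.162, and its call ended in 3 of them. The number of Rab genes called was 1 in the other settings run, also without the genes matched only by a synonym, an alternative chosen after seeing the data. With the scanner's log ratio and the series values, Rab27b moved to -0.95 and Rab37 to 0.70. Signals near background limit Rab38, Rab39 and Rab44. No paired analysis was possible because there is 1 group and a single pool.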
